A study of Mus musculus with 4 samples.

Results

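The 34 genes described here encode proteins of homologous recombination, the Fanconi anemia pathway, mismatch repair, single strand break and uracil repair, and the DNA damage checkpoint. They were taken by gene symbol from the 24411 symbols listed for each library; the rule uses no measured value, but the set was drawn up with earlier results of these data known. All 34 were found and all 34 passed the filter on low reads, as did 12617 genes in all. They were read in 4 RNA-seq libraries of B220+ B cells, sorted by flow cytometry from the marrow of mouse tibiae and femurs. B220 is a form of CD45 carried by B lineage cells and by plasmacytoid dendritic cells.

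Of the libraries, 2 were labelled as Arid5b overexpression and 2 as wildtype. Arid5b encodes a DNA-binding protein of the ARID family. The promoter or cell type that drives its overexpression, and the strain, age and number of the mice, are not given in the sources used here. The labels do not say which mice the libraries of a group came from, so p-values measure the spread between these libraries. The wildtype pair, which gives that spread for single libraries, differed in sex-linked genes (values below) and so cannot be 1 mouse measured in duplicate. The question named by the series is what raised Arid5b does to B cell development.

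Homologous recombination repairs a broken chromosome by copying the sister chromatid, and so works mainly in S and G2 phase. The MRE11-RAD50-NBN complex senses and trims the broken end, and BRCA1, PALB2 and BRCA2 then help build the protein filament on single-stranded DNA that searches for the matching sequence. The Fanconi anemia pathway removes crosslinks between the DNA strands: a core complex attaches ubiquitin to FANCD2 and FANCI, which then direct nucleases and recombination proteins to the lesion. ATM and ATR, through CHEK2 and CHEK1, halt the cell cycle while damage is present. B cell progenitors in marrow divide rapidly between rounds of V(D)J recombination, whose breaks are joined by a different pathway, nonhomologous end joining.

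The libraries held 15281839 and 20356404 reads in overexpression-labelled libraries 1 and 2, and 20146878 and 14196665 reads in wildtype libraries 1 and 2. Arid5b itself had 136339 and 5454 normalised reads in overexpression-labelled libraries 1 and 2, against 5963 and 6813 in wildtype libraries 1 and 2. Library 2 therefore went against its label, and the main results compare library 1 and library 2 with wildtype one at a time. The libraries also differed in markers of cell types. The 9 neutrophil markers summed to 127 and 1426 CPM (reads scaled to a common library total) in overexpression-labelled libraries 1 and 2, against 6.2 and 98.8 CPM in the wildtype libraries. The 8 B lineage markers summed to 3285 and 5749 CPM, against 5128 and 5816 CPM. Xist, expressed from the inactive X chromosome, had 68540 and 132008 reads in overexpression-labelled libraries 1 and 2, against 24 and 77255 in wildtype libraries 1 and 2. The Y-linked Ddx3y had 0 and 0 reads, against 3260 and 1. Wildtype library 1 thus stood apart from the other 3 in sex-linked genes, and the part of sex in the differences from wildtype was not tested.

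In overexpression-labelled library 1, 24 of the 34 genes were higher than in the wildtype pair and 1 gene, Xrcc2, was lower. The largest rises were in the checkpoint mediator Clspn and in the helicase gene Brip1. Also high were Bard1, Fancd2, Chek1 and the resection nuclease Exo1. The median difference over the 34 genes was 1.29 on the log2 scale, beside -0.15 over all genes tested. The same test called 26.6% of all genes tested higher and 34.5% lower in this library, so the share of the 34 genes called higher, 70.6%, stood above the background share in that direction. In 14 of the 34 genes the normalised reads were at least 4-fold those of the wildtype mean, and in 4 genes at least 10-fold. Library 1 was the highest of the 4 libraries for 29 genes. The shares of all genes for these fold and rank counts were not computed. The test was limma on the deposited log2 values, adjusted over all 12617 genes with a threshold of 0.05. Library 1 has no replicate of its own here, so the spread came from the wildtype pair and from limma's prior across genes. Without a filter on low reads the differences kept a median of 1.29, but 6 of the 34 genes (17.6%) were called higher and none lower, where 8.21% of all genes were called higher and 6.05% lower. Those 6 were Brip1, Rad50, Fancm, Msh6, Chek1 and Ung. The other 18 calls and that of Xrcc2 were lost, that of Clspn at a limma adjusted p of 0.0534. In bulk libraries, more cells of a kind and more RNA per cell cannot be told apart. Scaling by library totals moved the median of all genes in library 1 to -0.03, and by totals without the ribosomal transcript Rn45s to 0.02. Under each, 27 of the 34 genes were called higher. Of the 12617 genes tested, 3907 and 3914 were then called higher, where the deposited scaling gave 3362.

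In overexpression-labelled library 2, none of the 34 genes was higher than in the wildtype pair, and Xrcc2 alone was lower. The median difference was -0.01 on the log2 scale, beside 0.01 over all genes tested. The background shares were 0.65% higher and 0.761% lower. Library 2 was the lowest of the 4 libraries for 13 genes, among them Brca1, Bard1, Exo1 and Fanca, and lay within the wildtype range for 7. The shares of all genes for these counts were not computed, so they do not set the 34 genes apart. Both single-library comparisons share the 2 wildtype libraries.

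The difference between the 2 overexpression-labelled libraries was tested directly. Library 1 was higher than library 2 in 22 genes and lower in 1, Atr, where 22.4% of all genes tested were higher and 30.1% lower. This test compares 2 libraries and not 2 conditions. With both libraries as 1 group of 2 against 2, no member was called, nor was any gene at all (a background of 0%). Of all genes, 280 had an unadjusted p under 0.05 in limma, and limma-voom on recovered reads called 0 genes and gave 186. The median member difference in that comparison was 0.70, beside -0.08 over all genes tested. Both overexpression-labelled libraries lay above both wildtype libraries for 11 members, among them Clspn, Ung, Brca2 and Atm (32.4%, background 19.6%), and below both for 2, Xrcc2 and Fancc (5.88%, background 23%).

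**Figure D1:**
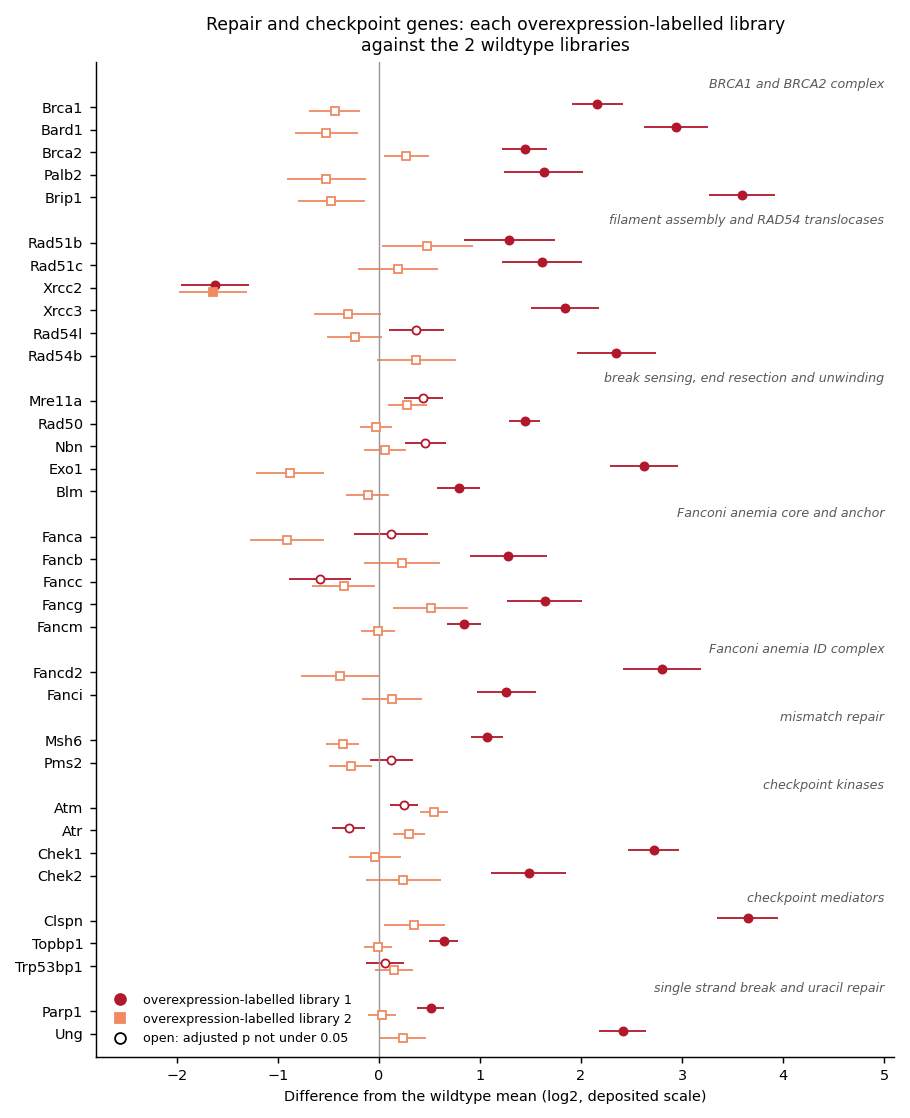
Difference of each overexpression-labelled library from the wildtype mean for the 34 genes, grouped by role, on the deposited log2 scale; points are differences, bars are 1 standard error, circles are library 1, squares are library 2, and filled symbols have an adjusted p under 0.05. In library 1, 24 genes stand to the right with filled symbols and Xrcc2 to the left. In library 2, the filled symbol is that of Xrcc2.

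The promoters of the genes were read for 3 short sequence words, because 24 genes were higher together in library 1. The RefSeq promoter table (GRCm38.p6, 250 bases before to 50 after each start) held 28 of the 34 genes, and not Fancd2, Exo1, Rad54b, Xrcc2, Rad50 and Nbn. E2F factors, which drive genes of the G1 to S transition, bind words of the kind TTTGGCGC, TTTCCCGC, TTTGCCGC and TTTCGCGC. Searched on both strands, at least 1 of these 4 words lay in the promoters of 8 of the 28 genes (28.6%), beside 2.6% of the 27025 genes with a promoter in the table and 4.73% of the 9522 of those that were tested. All 8 were among the 20 genes with a promoter that were higher in library 1, and 0 of the 8 others held a word. The share with a word among all genes higher in library 1 was not computed, so this split has no background. The windows below show each word in capitals in 30 bases of the gene's own strand, 5′ to 3′; a word that begins with GC is the reverse complement. Rad51c has 2 annotated starts, each with a word.
Clspn (chr4:126556990-126557019, plus strand): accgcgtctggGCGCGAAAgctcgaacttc
Bard1 (chr1:71103163-71103192, minus strand): ccgccgctcagTTTCCCGCtcaggaagttt
Brca2 (chr5:150522442-150522471, plus strand): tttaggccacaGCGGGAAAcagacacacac
Rad51c (chr11:87404477-87404506, minus strand): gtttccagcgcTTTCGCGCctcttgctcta
Rad51c (chr11:87404941-87404970, minus strand): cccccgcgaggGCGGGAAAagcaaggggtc
Fancg (chr4:43010335-43010364, minus strand): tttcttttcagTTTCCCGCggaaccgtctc
Msh6 (chr17:87975054-87975083, plus strand): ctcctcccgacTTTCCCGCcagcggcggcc
Chek2 (chr5:110839820-110839849, plus strand): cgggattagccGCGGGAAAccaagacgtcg
Topbp1 (chr9:103305187-103305216, plus strand): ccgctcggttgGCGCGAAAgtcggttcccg

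Counted from the RefSeq start, the word begins 209 bases before it in Bard1 and 168 bases before it in Brca2. The 250 bases before the start of Brca2 follow, with the word again in capitals, to show its setting in the promoter.
Brca2 (chr5:150522371-150522620, plus strand): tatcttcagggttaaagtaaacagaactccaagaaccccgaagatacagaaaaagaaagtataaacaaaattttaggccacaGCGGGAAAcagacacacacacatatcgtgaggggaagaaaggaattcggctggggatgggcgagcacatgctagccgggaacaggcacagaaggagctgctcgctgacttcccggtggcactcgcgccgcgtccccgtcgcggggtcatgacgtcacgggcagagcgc

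The other words were spread differently. CCAAT, or ATTGG on the other strand, which the factor NF-Y binds, lay in 17 of the 28 promoters (60.7%), beside 41.1% of all and 42.7% of the genes tested. It was held by 11 of the 20 genes higher in library 1 (55%) and by 6 of the 8 others (75%), again without that background. TTTGAA, or TTCAAA on the other strand, the core of the cell cycle homology region found in promoters of mitotic genes, lay in 2 of the 28 (7.14%), beside 20.2% of all and 14.6% of the genes tested. None of the words contains another. A match is a description and not a site, and their part in the differences was not tested.

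The 5 genes of the BRCA complex were all higher in library 1, with a median difference of 2.16, and none passed in library 2, where the median was -0.47. Brip1, the BRCA1-associated helicase also known as FANCJ (chr11:86058138-86201193, GRCm38, minus strand), had 1977 and 68.9 normalised reads in overexpression-labelled libraries 1 and 2, against 120 and 108 in wildtype libraries 1 and 2. Library 1 stood far above the rest, 17.4-fold over the wildtype mean, and library 2 was the lowest. The difference in library 1 was 3.59 ± 0.327 (SE; limma adjusted p = 1.07e-06). Bard1, the partner with which BRCA1 forms a ubiquitin ligase, had 1776 and 110 normalised reads, against 155 and 210 in the wildtype libraries. It was 9.72-fold higher in library 1, a difference of 2.94 ± 0.314 (limma adjusted p = 4.52e-06), and lowest in library 2.

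Brca1 itself (chr11:101488764-101551955, minus strand) had 3045 and 453 normalised reads in overexpression-labelled libraries 1 and 2, against 779 and 517 in the wildtype libraries. The difference was 2.16 in library 1 (limma adjusted p = 1.03e-05) and -0.44 in library 2 (adjusted p = 0.426). Palb2, which joins BRCA1 to BRCA2, showed the same order of libraries, with 303 and 31.5 normalised reads against 65.7 and 60.8. Its difference was 1.63 in library 1 (limma adjusted p = 0.00296). Brca2, which acts in filament assembly, had 2102 and 902 normalised reads, against 648 and 835, a difference of 1.44 in library 1 (limma adjusted p = 0.000109). It was the member of the complex whose 2 overexpression-labelled libraries both lay above the wildtype pair, though library 2 by a difference of 0.27 that did not pass (adjusted p = 0.587).

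**Figure D2:**
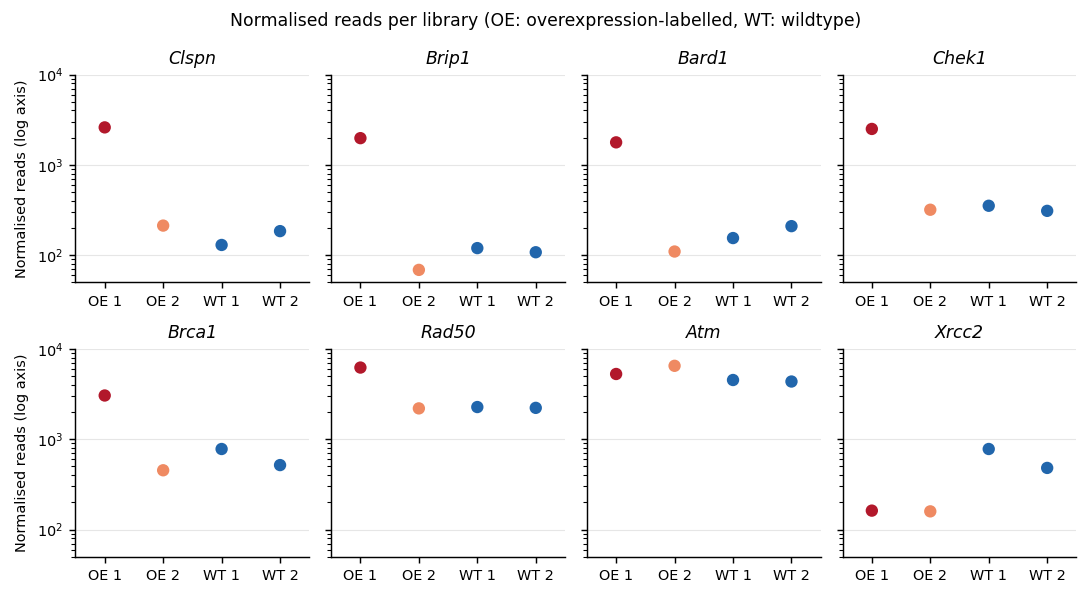
Normalised reads per library for 8 of the genes, on a log axis, with overexpression-labelled libraries 1 and 2 (OE) to the left of wildtype libraries 1 and 2 (WT); each point is 1 library. Clspn, Brip1, Bard1, Chek1, Brca1 and Rad50 are high in library 1 alone, Atm is at 5268 and 6488 in the OE libraries against 4519 and 4348 in the WT libraries, and Xrcc2 is low in both OE libraries, at 162 and 159 against 779 and 481.

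Among the genes of filament assembly and the RAD54 translocases, 4 of 6 were higher and 1 lower in library 1, with a median difference of 1.45. Rad51b, Rad51c, Xrcc2 and Xrcc3 encode proteins that help the filament form and hold, and the RAD54 proteins move along DNA to help the filament pair with its template. Rad54b had 375 and 57.1 normalised reads in overexpression-labelled libraries 1 and 2, against 35.9 and 33.2 in the wildtype libraries. The difference was 2.35 in library 1 (limma adjusted p = 0.000212); 35.8% of its exonic bases are shared with Fsbp on the same strand, so reads of the pair could be split by the counting. Xrcc3 had 687 and 112 normalised reads, against 157 and 146, a difference of 1.84 in library 1 (limma adjusted p = 0.000405). Rad51c had 380 and 108 against 61.8 and 124, and differed by 1.61 in library 1 (limma adjusted p = 0.00358). Its wildtype libraries lay 2-fold apart, and library 2 fell between them.

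Rad51b had the fewest reads of the members, with 103 and 39.4 normalised reads in overexpression-labelled libraries 1 and 2 against 31.9 and 8.29 in the wildtype libraries; wildtype library 2 rested on 3 reads. Its difference of 1.29 ± 0.452 in library 1 (limma adjusted p = 0.0252) is the call nearest the threshold, and its 5.14-fold ratio rests on few wildtype reads. Rad54l, the main RAD54 translocase, did not pass, with 575 and 358 normalised reads against 432 and 434. Its difference in library 1 was 0.37 (limma adjusted p = 0.256), and 15.4% of its exonic bases overlap Lrrc41 on the other strand.

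Xrcc2, a gene of filament assembly (chr5:25689812-25705825, minus strand), ran against the rest of its group. It had 162 and 159 normalised reads in overexpression-labelled libraries 1 and 2, against 779 and 481 in wildtype libraries 1 and 2. The overexpression-labelled libraries lay close together and both far below the wildtype pair, at 0.257 and 0.253 of its mean. The difference was -1.62 ± 0.335 in library 1 (limma adjusted p = 0.00109) and -1.64 ± 0.335 in library 2 (limma adjusted p = 0.0322). Between the 2 libraries it was 0.02 (limma adjusted p = 0.976). Of the 34 genes it was the only one called in library 2, and the library 2 call was lost when values were scaled by library totals without Rn45s, on a log2 scale of normalised reads plus 0.5, or without a filter. As a group of 2 against 2 the difference was -1.63 ± 0.436 (limma adjusted p = 0.726). Arid5b was high in library 1 and not in library 2, and Xrcc2 was low in both. The part of Arid5b, or of sex, in the level of Xrcc2 was not tested.

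Break sensing, end resection and unwinding gave 3 higher of 5 in library 1, with a median difference of 0.79. Exo1, a nuclease of end resection and mismatch repair, had 1210 and 59.1 normalised reads in overexpression-labelled libraries 1 and 2, against 171 and 130 in the wildtype libraries. It was 8.04-fold higher in library 1, a difference of 2.62 (limma adjusted p = 2.48e-05), and lowest in library 2, where the difference of -0.88 did not pass (adjusted p = 0.222). The 3 subunits of the MRE11-RAD50-NBN complex differed among themselves. Rad50, the tether of the complex, had 6206 and 2193 normalised reads, against 2269 and 2222. The difference was 1.44 ± 0.155 in library 1 (limma adjusted p = 4.77e-06), and library 2 lay near the wildtype pair. Mre11a, the nuclease, had 1485 and 1329 against 1094 and 1067, a difference of 0.44 in library 1 (limma adjusted p = 0.0654). Nbn, which binds ATM, had 1487 and 1109 against 966 and 1172, a difference of 0.46 (limma adjusted p = 0.0691). Neither passed, though both did with library totals as the scaling, and whether Rad50 differed from its partners was not tested. The helicase gene Blm was higher in library 1, with 1672 and 870 normalised reads against 1040 and 857 (difference 0.79; limma adjusted p = 0.00628).

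Within the Fanconi anemia core complex and its anchor, 3 of 5 genes were higher in library 1, with a median difference of 0.84. Fancg, a core scaffold subunit, had 375 and 142 normalised reads in overexpression-labelled libraries 1 and 2, against 69.7 and 102 in the wildtype libraries, a difference of 1.64 in library 1 (limma adjusted p = 0.00202). The X-linked Fancb, also a core subunit, had 249 and 92.5 normalised reads, against 69.7 and 74.6 (difference 1.28; limma adjusted p = 0.0105). The wildtype libraries differed in Xist reads, and the part of sex in the levels of Fancb was not tested. Fancm, the translocase that anchors the core complex to DNA, had 3378 and 1853 against 1873 and 1846 (difference 0.84; limma adjusted p = 0.000766), and library 2 was level with the wildtype pair.

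The other core genes did not pass. Fanca had 181 and 63 normalised reads in overexpression-labelled libraries 1 and 2, against 157 and 166 in the wildtype libraries. Library 1 was near wildtype (difference 0.12; limma adjusted p = 0.784) and library 2 was low, with a difference of -0.91 (adjusted p = 0.244). Fancc had 291 and 352 against 381 and 564, and both overexpression-labelled libraries lay below both wildtype libraries. The differences were -0.58 in library 1 (limma adjusted p = 0.116) and -0.35 in library 2 (adjusted p = 0.625). Exons of Fanca and Fancc overlap genes on the other strand, Zfp276 by 10.5% and 2010111I01Rik by 2.2%. Those of Fancc also overlap Gm16133, an antisense gene that was not among those tested, by 16.4%. Strand use in counting is not given in the sources used here.

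Both genes of the ID complex, the substrate of the core ligase, were higher in library 1. Fancd2 (chr6:113531682-113597017, plus strand) had 746 and 37.4 normalised reads in overexpression-labelled libraries 1 and 2, against 47.8 and 80.2 in the wildtype libraries. Library 1 was 11.7-fold above the wildtype mean and library 2 was the lowest of the 4. The difference was 2.80 ± 0.386 in library 1 (limma adjusted p = 4.58e-05). Fanci, its partner, moved less, with 690 and 284 normalised reads against 247 and 263 and a difference of 1.26 in library 1 (limma adjusted p = 0.00254). Polg overlaps 16% of the exonic bases of Fanci on the other strand.

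Of the mismatch repair genes, Msh6, whose product recognises single mismatches, had 4602 and 1674 normalised reads in overexpression-labelled libraries 1 and 2, against 2116 and 2203 in the wildtype libraries. It was higher in library 1 by 1.07 (limma adjusted p = 9.16e-05) and lowest in library 2. Pms2, which encodes a nuclease subunit of the pathway, differed less, with 1154 and 860 against 1152 and 970. Its differences of 0.12 and -0.28 did not pass (limma adjusted p = 0.639 and 0.562).

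The checkpoint kinases split into the effector kinases, which were higher in library 1, and the upstream kinases, which were not called. Chek1, the effector of ATR (chr9:36708482-36727065, minus strand), had 2500 and 319 normalised reads in overexpression-labelled libraries 1 and 2, against 353 and 310 in the wildtype libraries. It was 7.55-fold higher in library 1, a difference of 2.72 ± 0.253 (limma adjusted p = 1.35e-06), and library 2 fell between the wildtype libraries. Chek2, the effector of ATM, had 364 and 122 normalised reads, against 118 and 77.4 (difference 1.48; limma adjusted p = 0.00408). Atm had 5268 and 6488 normalised reads, against 4519 and 4348, and was highest in library 2. Its differences of 0.25 in library 1 and 0.54 in library 2 did not pass (limma adjusted p = 0.14 and 0.0828), though limma-voom called it in library 2, and scaling by library totals in library 1. Atr had 2029 and 3109 against 2576 and 2457, so that library 1 was the lowest and library 2 the highest. Neither differed from wildtype beyond the threshold (limma adjusted p = 0.118 and 0.389), but library 1 was lower than library 2 (difference -0.60; limma adjusted p = 0.0157).

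Of the checkpoint mediators, Clspn had the largest difference of all 34 genes. Claspin, its product, brings CHEK1 to ATR at stalled forks (chr4:126556935-126593903, plus strand). It had 2601 and 213 normalised reads in overexpression-labelled libraries 1 and 2, against 130 and 185 in the wildtype libraries, and its groups did not overlap. Library 1 was 16.5-fold over the wildtype mean, a difference of 3.65 ± 0.302 (limma adjusted p = 4.33e-07). In library 2 the difference was 0.35 (adjusted p = 0.616), and over both libraries it was 2.0 ± 1.17 (adjusted p = 0.726). Topbp1, the activator of ATR, had 6363 and 4019 normalised reads against 4110 and 3985 (difference 0.64 in library 1; limma adjusted p = 0.00164). Trp53bp1, which favours end joining over resection, was nearly level, with 1480 and 1587 against 1347 and 1498 and a difference of 0.06 in library 1 (limma adjusted p = 0.804). Tubgcp4 overlaps 15% of its exonic bases on the other strand.

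The remaining genes act on base damage and single strand breaks. Ung removes uracil from DNA and in B cells takes part in class switching. It had 2566 and 526 normalised reads in overexpression-labelled libraries 1 and 2, against 432 and 439 in the wildtype libraries, a difference of 2.41 ± 0.23 in library 1 (limma adjusted p = 1.68e-06). Parp1, the sensor of single strand breaks, had 7872 and 5643 against 5377 and 5660. Its difference of 0.51 in library 1 (limma adjusted p = 0.00588) was the smallest that passed among the 34 genes.

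Per kilobase of exon the genes covered a wide range of levels, and the 14 genes that were at least 4-fold higher in library 1 all ranked 14 or lower among the 34 in wildtype. The fold divides by the same wildtype mean that sets the rank, which favours high folds in genes low in wildtype. In wildtype libraries Parp1 was the highest, with a mean of 1043 normalised reads per kilobase, followed by Msh6 with 497 and Atm with 429. The lowest were Rad51b at 5.35, Rad54b at 5.97, Fancd2 at 8.06 and Palb2 at 8.62. The single wildtype libraries of these 4 genes ran from 2.21 to 10.1 per kilobase, and the ranges of neighbours in that order overlapped. Clspn ranked 9 of the 34 in library 1, at 362 per kilobase, and 26 in wildtype, at 21.9. Xrcc2 ranked 32 in library 1, at 31 per kilobase, and 10 in wildtype, at 121. The exonic length counts the exons of all annotated transcripts, so a gene with many transcripts is understated.

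Genes of the same pathways outside the 34 gave a mixed picture in library 1. Of 98 such genes in 5 lists, 95 were tested, 36 were higher and 22 lower, with a median difference of 0.32. The background for these and the following counts in library 1 is 26.6% of all genes tested higher and 34.5% lower. Of the other homologous recombination genes 12 were higher and 10 lower among 35, with a median of 0.02. Dna2, a resection nuclease and helicase, had 1501 and 120 normalised reads in overexpression-labelled libraries 1 and 2, against 67.7 and 38.7 in the wildtype libraries, a difference of 3.90 (limma adjusted p = 1.3e-06). Rmi2, of the BLM dissolvasome, differed by 3.06, and the chromatin remodeller Hells by 2.96.

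The other Fanconi anemia genes split evenly, with 5 higher and 6 lower of 18 and a median of 0.24. Apitd1, a histone-fold partner of FANCM, was higher by 3.56 (limma adjusted p = 7.11e-06), and Usp1, which removes ubiquitin from FANCD2, by 1.48 (limma adjusted p = 6.33e-06). Faap100, a core subunit, was lower, with 124 and 412 normalised reads in overexpression-labelled libraries 1 and 2 against 677 and 721 in the wildtype libraries (difference -2.07 in library 1; limma adjusted p = 3.52e-05). Rev3l, the catalytic subunit of polymerase zeta, was lower as well (difference -1.53; limma adjusted p = 7.21e-07). Of 6 other mismatch repair genes 4 were higher and none lower, among them Lig1, the replicative ligase (difference 2.83; limma adjusted p = 3.58e-08), and Pms1 (difference 2.04; limma adjusted p = 0.000146).

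The other damage checkpoint genes gave 10 higher and 5 lower of 20 tested, with a median of 0.50. H2afx, the histone variant that ATM phosphorylates at breaks, had 7628 and 908 normalised reads in overexpression-labelled libraries 1 and 2, against 665 and 583 in the wildtype libraries (difference 3.49 in library 1; limma adjusted p = 1.06e-08). The fork protection partners Timeless and Tipin were higher by 3.46 and 3.18, and the phosphatase gene Cdc25a by 2.21. Of 16 other base excision and strand break genes 5 were higher and 1 lower, with a median of 0.55, led by the flap nuclease Fen1 at 1.62 and the scaffold Xrcc1 at 1.46. Mbd4 and Lig3 followed at 1.04 and 0.95. None of the 95 genes passed in library 2, where 0.65% of all genes tested were higher and 0.761% lower.

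Nonhomologous end joining, the competing pathway, had 4 genes higher and 2 lower of 9 in library 1, with a median of 0.63. Lig4, its ligase, had 1088 and 70.9 normalised reads in overexpression-labelled libraries 1 and 2, against 169 and 141 in the wildtype libraries (difference 2.44 in library 1; limma adjusted p = 4.01e-05). Xrcc6, which encodes Ku70, was higher by 1.87. Dclre1c, which encodes the nuclease Artemis, was lower, at 1428 and 6123 against 3987 and 5243 (difference -1.64; limma adjusted p = 4.47e-06), as was the polymerase gene Polm, with a difference of -1.32. None passed in library 2.

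Proliferation genes moved with the repair genes. Summed over 16 S phase genes, the level was 3046 and 467 CPM in overexpression-labelled libraries 1 and 2, against 423 and 452 CPM in the wildtype libraries. Summed over 12 mitotic genes it was 3017 and 200 CPM, against 126 and 140 CPM. The 34 members summed to 1848 and 882 CPM, against 844 and 857 CPM. In library 1, 15 of the 16 S phase genes were higher, with a median difference of 2.76, and all 12 mitotic genes, with a median of 3.95, both above the median of 1.29 for the members. Rrm2, which makes deoxynucleotides, differed by 5.36 (limma adjusted p = 1.75e-09), and the mitotic marker Mki67 by 4.63 (limma adjusted p = 3.98e-11). In library 2 no S phase gene passed, and of the mitotic genes Mki67 alone did, by 0.84 (limma adjusted p = 0.0104). The part of proliferation in the repair differences was not tested.

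**Figure D3:**
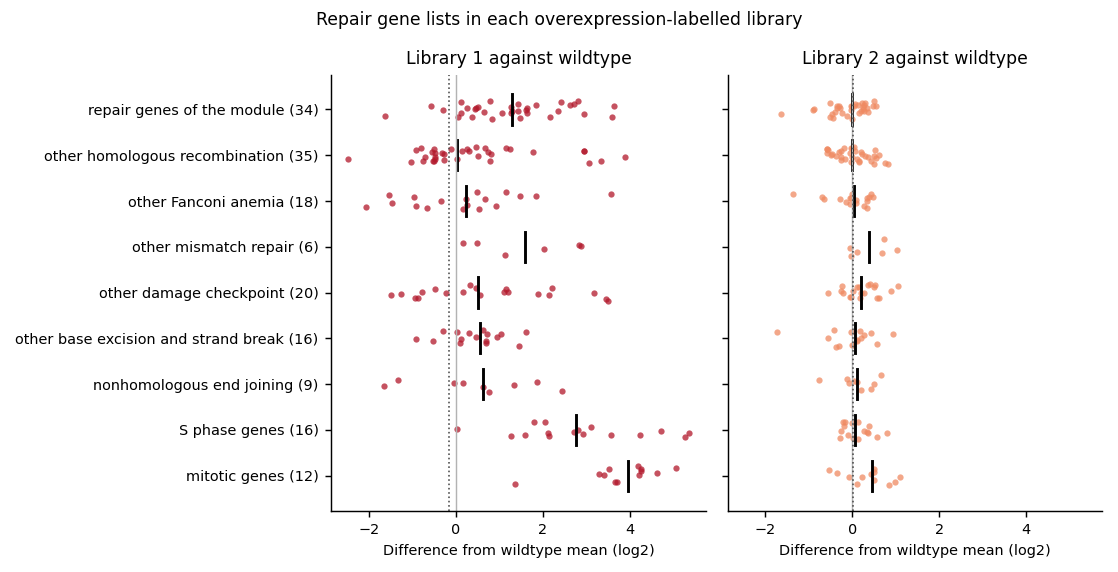
Differences of library 1 (left) and library 2 (right) from the wildtype mean, on the deposited log2 scale, for the 34 repair genes and for other lists, with the number of genes tested in brackets; each point is a gene, the black bar is the list's median and the dotted line the median of all genes tested. In library 1 the members' median of 1.29 lies above that of the other homologous recombination genes, 0.02, and below those of S phase genes, 2.76, and mitotic genes, 3.95. In library 2 the members' median is -0.01.

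Markers of cell types moved with library 1 as well. Of 8 B lineage markers 3 were higher and 5 lower in library 1, among them Ms4a1, which encodes CD20, at 349 and 23651 normalised reads in overexpression-labelled libraries 1 and 2 against 16451 and 22409 in the wildtype libraries. Ptprc, the gene of CD45 and so of B220, was lower in library 1 with a difference of -2.47, as was Cd79a with -1.31, while Cd79b was higher by 1.10 (limma adjusted p = 2.66e-09, 1.11e-06 and 1.2e-05). The 6 monocyte markers summed to 18.7 and 305 CPM, against 172 and 224 CPM, with 1 marker at 0 in each overexpression-labelled library. In library 2 and the wildtype libraries Ly86 and Ms4a6c made up most of this sum. Csf1r had 2 and 27 reads, against 32 and 25. Of the 5 monocyte markers tested, 4 were lower in library 1 (background 34.5%), while Ccr2 differed by 0.55 and did not pass. The 8 T and NK cell markers summed to 2.68 and 21.7 CPM, against 47.8 and 50.7 CPM, with 2 at 0 in library 1. All 8 were tested, and 7 were lower in library 1 (background 34.5%). In library 2, Gzma alone was lower (background 0.761%). The 5 plasmacytoid dendritic markers summed to 201 and 581 CPM, against 704 and 591 CPM. Of these, Siglech and Ccr9 had 4 and 12 reads in library 1, and Tcf4 and Irf8 had 2319 and 588. The differences in library 1 were -4.80, -4.27, -1.09 and -2.87 in that order, and that of Bst2 was -0.28. The 7 erythroid markers summed to between 4.96 and 5.56 CPM in every library, mostly from Alas2, and 3 of them were at 0 in all 4. Of the 2 tested, Alas2 was not called and Epor was lower in library 1. Epor had 0 and 15 reads, against 33 and 5, a difference of -1.45 in library 1. In library 2 all 7 neutrophil markers tested were higher (background 0.65%). Of these, 2 were also higher in library 1, S100a8 and S100a9 (background 26.6%). The part of cell makeup in the repair differences was not tested.

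A feature of position, which the choice of the genes did not use, was more frequent among them than among the protein-coding genes tested. A protein-coding gene starts head to head, on the opposite strand and within 1000 bases of the start, for 12 of the 34 (35.3%), beside 12.7% of the 11402 protein-coding genes tested. Of the 11 pairs with both genes tested, 8 had a repair gene that was higher in library 1, and in 1 of these the neighbour was higher as well. That pair was Palb2 and Dctn5, whose starts lie 56 bases apart; Dctn5 had 1525 and 565 normalised reads in overexpression-labelled libraries 1 and 2, against 618 and 495 in the wildtype libraries (difference 1.37 in library 1; limma adjusted p = 0.000316). In 2 pairs the neighbour was lower. Tex14, 111 bases from Rad51c, differed by -1.57 (limma adjusted p = 0.00204), and Zfyve26, 978 bases from Rad51b, by -1.13 (limma adjusted p = 7.77e-05).

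In the other 5 of the 8 pairs the neighbour was not called. Emc3, whose start lies 30 bases from that of Fancd2, had 1947 and 1599 normalised reads in overexpression-labelled libraries 1 and 2, against 2154 and 1515 in the wildtype libraries, a difference of 0.10 beside 2.80 for Fancd2. Nbr1, 194 bases from Brca1, differed by -0.25 (limma adjusted p = 0.277) beside 2.16 for Brca1. Hscb beside Chek2, Zfyve21 beside Xrcc3 and Mospd2 beside Fancb differed by 0.44, 1.21 and -0.54. Of the 3 pairs whose repair gene was not higher, Aimp2 beside Pms2 passed, with a difference of 0.66 (limma adjusted p = 0.0414). Over the 11 pairs the median difference in library 1 was 1.48 for the repair genes and 0.23 for their neighbours. No neighbour was called in library 2.

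**Figure D4:**
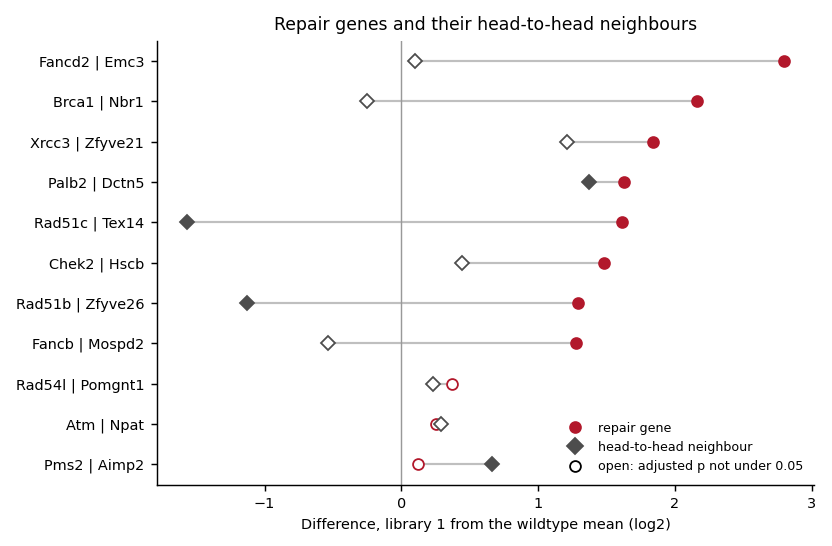
Difference of library 1 from the wildtype mean, on the deposited log2 scale, for 11 repair genes (circles) and the gene that starts head to head with each (diamonds); filled symbols have an adjusted p under 0.05 and a grey line joins each pair. The neighbour lies near 0 or below for Fancd2, Brca1, Rad51c, Rad51b and Fancb, and near the repair gene for Palb2, Rad54l and Atm.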

How the data were processed

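RNA of sorted B220+ marrow cells was sequenced, and the groups follow the genotype labels; 1 wildtype label is misspelled, and the header naming overexpression-labelled library 1 and its sample's title disagree in 1 digit. STAR, HTSeq, DESeq2 and build mm10 are named in the submitters' processing notes; versions, settings and strand use are not given in the sources used here. The authors' log2 values share a floor of 4.949 and have the form of a variance stabilizing transformation. Solved for reads, 100% came out whole within 0.01, with size factors of 0.4263 and 0.5079 for the overexpression-labelled and 0.5019 and 0.3618 for the wildtype libraries. A read here is the smallest step of the values. Whether the authors' own numbers were a multiple of it is not known, and intervals of counting error are not given. Normalised reads are reads divided by the size factor, and all folds and per-kilobase levels use them; the named-gene rule had foreseen CPM for single genes.

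Genes reaching 10 reads, scaled to the median library, in 2 or more libraries and 15 reads in total were tested with limma-trend (limma 3.58.1, R 4.3.3) on the deposited values. Tests were two-sided with Benjamini-Hochberg adjustment over 12617 genes and a threshold of 0.05. Single libraries were fitted with the wildtype pair as the only replicated level, so a lone library is assumed to vary as that pair does. An exact permutation of 2 against 2 cannot go below p = 0.333. Differences understate changes of genes with few reads. The script was tested on simulated data.

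The 34 genes, their 9 roles, the 14 other gene lists and the promoter words were chosen with earlier results of these data known. Single genes were given in full where they had the 2 largest differences of their role, did not pass or were called in library 2. Of the other repair lists, up to 4 called genes with the largest differences and a mean of at least 5 CPM were named. Some of those genes are not reported here. Positions come from GENCODE M21 (GRCm38) and promoters from RefSeq (GRCm38.p6). Alternatives were 2 scalings, another log2 scale, limma-voom, 2 filters, a robust prior and leaving out each library.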

Additional observations from a re-analysis of the deposited data

How the results depend on the processing

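With both overexpression-labelled libraries against wildtype, 0 of the 34 genes were called under every scaling, scale, filter and prior; leaving out single libraries gave 0 to 25 calls, with 25 without overexpression-labelled library 2 and 1, Xrcc2, without library 1. Without library 2 most of all genes tested were called too, so the count of 25 alone does not set the 34 genes apart. Without library 1 few genes were called among all genes tested as well. The background by direction is given above, where each library is compared alone with wildtype. The median difference of 0.70 became 0.789 with totals without Rn45s and 0.359 with at least 5 CPM in 2 libraries. This median ran from -0.00759 to 1.29 over the libraries left out. It was lowest without library 1, where 15 genes changed sign. In library 1, the 24 genes higher and 1 lower became 6 and 0 without a filter (17.6% higher, beside 8.21% of all genes). The median was still 1.29. At 5 CPM, 13 of 22 tested were higher (59.1%, beside 29.2%). The difference from library 2, called in 23 genes, was called in 6 without a filter and in 14 at 5 CPM. Of all genes tested, 1118 were higher than in library 2 and 1368 lower among 17905 without a filter. At 5 CPM these were 2203 and 2878 among 8768. The stricter filter tested fewer of the 34 genes; the cause of the other change was not tested. By either total 27 were higher, with Mre11a, Nbn and Atm added, beside 3907 and 3914 of the 12617 genes tested. The median in library 1, 1.29, was 1.39 with totals, 1.44 with totals without Rn45s, 1.49 on log2 of normalised reads plus 0.5, 1.5 with limma-voom and 0.716 at 5 CPM.

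In library 2, limma-voom called 1 gene higher, Atm, and the call of Xrcc2 gave 0 with totals without Rn45s, log2 plus 0.5 or no filter. Small differences in library 2 changed sign without wildtype replicate 1: over the libraries left out Rad51c ran from -0.139 to 0.511, Nbn from -0.0762 to 0.187, Blm from -0.242 to 0.021, Fancm from -0.015 to 0.00491, Chek1 from -0.124 to 0.0366, Topbp1 from -0.032 to 0.0118 and Parp1 from -0.0044 to 0.0688. Trp53bp1 in library 1 ran from -0.0167 to 0.13. A lone library against 1 wildtype library has no residual degrees of freedom, so only differences were computed. No paired analysis was possible because replicate numbers here only name libraries in order of deposit, and no label ties a library of one group to one of the other. Lowest in depth was Rad51b, with 3 reads in wildtype library 2.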
